A study of Oreochromis niloticus with 5 samples.

Results

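Myostatin b (mstnb, transcript rna45409) and the insulin-like growth factor binding protein 5 paralogs igfbp5b (rna45360) and igfbp5a (rna64996) were examined in fast muscle of Nile tilapia. These 3 genes, of 42564 genes that carried a listed feature, were taken by name as growth regulators that muscle itself makes. They were chosen with earlier results of these data known, and all 3 had counts in every library. The libraries came from fast (white) muscle of 5 untreated males, M1 to M5, given as 5 months old in the labels. The study's methods give a longer rearing time, and describe full siblings held together so that they shared 1 environment. They were a first captive-bred generation, whose parents were raised in captivity from eggs of wild females. There was 1 library per fish, 1 family, 1 sex and 1 condition, so the design held no treated or control group, and differences are given between genes within a fish and between fish.

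Myostatin is a secreted ligand of the TGF-β family that restrains skeletal muscle growth. It is made as a precursor, cut by furin-type proteases, held inactive by its own propeptide and by follistatins, and signals through activin type II receptors and SMAD2/3. IGF-binding proteins bind IGF1 and IGF2 outside the cell and set how much of them reaches the IGF1 receptor, and IGFBP5 is a form that muscle and connective tissue cells make. In mammals IGFBP5 can either hold IGFs back or keep them near the cell surface. Teleost fishes carry duplicates of many of these genes from a whole-genome duplication, which are named a and b.

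The total counts per library ranged from 26750559 in M1 to 90337019 in M2. A count divided by the size factor of its library is called a normalized count here. TPM, the share of a transcript in its library after division by transcript length, and was used wherever genes were compared with each other. Of the 10 fast muscle markers chosen, 5 were found by symbol, and together they held between 88071 and 105508 TPM per fish, while the slow muscle markers found (2 of 9) held 14.3 TPM in M1 and between 0.0935 and 0.365 TPM in the other fish. M1 stood apart here through mybpc1, a myosin-binding protein gene of slow fibres, at 13.98 TPM. The other slow marker found, tnnt1, did not set it apart, at 0.312 TPM in M1 and 0.311 in M5. M1 had the largest share of ribosomal RNA among its counts, 0.201%, against at most 0.0164% in the other fish. The study also reports for M1 an overall alignment rate far below that of every other library, and the lowest share of assigned fragments. Nothing in the labels says that the fish were handled in batches.

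The gene mstnb lies on linkage group 16 from 6692731 to 6697346 of the assembly O_niloticus_UMD_NMBU, on the minus strand. Its transcript of 3560 bases has 3 exons of 1506, 371 and 1683 bases. The gene igfbp5b lies on the same linkage group from 6101391 to 6113729, also on the minus strand, with 4 exons of 334, 209, 120 and 3118 bases. Its paralog igfbp5a lies on linkage group 23 from 23246027 to 23255208 on the plus strand, with 4 exons of 851, 230, 120 and 2932 bases. In both paralogs exon 3 has 120 bases, and the last exon is the longest. A second transcript of igfbp5a, rna64997, is shorter by 36 bases at the end of exon 2, and its count equalled that of rna64996 in 5 of 5 fish, so the isoforms could not be told apart by these counts.

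igfbp5b was the most abundant of the 3 genes, mstnb came next and igfbp5a was far lower, in every fish. Their mean levels were 24.7 ± 5.63 TPM for igfbp5b, 9.94 ± 2.09 TPM for mstnb and 1.15 ± 0.457 TPM for igfbp5a (SD, n = 5 fish). Among the 25475 genes with any count, igfbp5b ranked 1383 by mean TPM, mstnb ranked 2718 and igfbp5a ranked 8993. The order held in 5 of 5 fish for each of the 3 pairs of genes. The mean log2 ratio per length was 4.50 ± 0.81 for igfbp5b to igfbp5a, 1.31 ± 0.35 for igfbp5b to mstnb and 3.19 ± 0.68 for mstnb to igfbp5a (SD, n = 5; exact sign-flip permutation test, two-sided, p = 0.0625 for each pair, also after adjustment over 3 pairs). This is the smallest p that 5 fish allow, so no pair could pass 0.05.

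**Figure D1:**
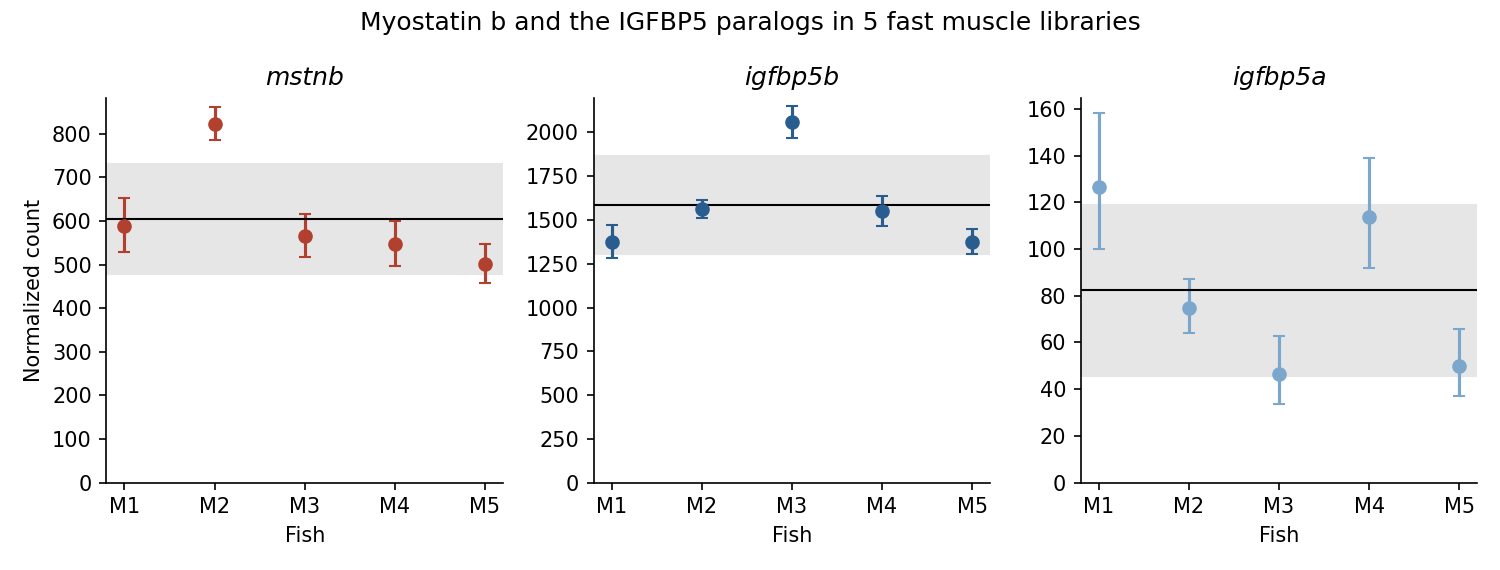
Normalized count (vertical axes, each starting at 0) of mstnb, igfbp5b and igfbp5a in fish M1 to M5. Points are the fish, bars the exact 95% Poisson interval of the count, the line the mean and the band the mean ± SD over 5 fish; mstnb is highest in M2 at 823, igfbp5b is highest in M3 at 2058, and igfbp5a is high in M1 and M4 and low in M3 and M5.

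The negative growth regulator mstnb was counted 357 times in M1 and 1813 times in M2, with 521, 452 and 503 counts in the fish M3, M4 and M5. Divided by the size factors, these were normalized counts of 587.8 in M1 and 822.9 in M2, with 564.4, 546.1 and 501.4 in the fish M3, M4 and M5, with a mean of 604.5 ± 126.1 (SD, n = 5). M2 stood above the others, which lay within 501 to 588 normalized counts. The value in M2 was 1.40 times that of the next fish, M1, with an interval of 1.25 to 1.57 from the exact binomial interval of their counts at 95%. Such intervals cover counting error at most, with the size factors taken as fixed. They can be too narrow even for that, since reads of amplified libraries are not independent molecules. Over all 5 fish the coefficient of variation was 20.9%, against 4.22% from counting alone. Without M2 it was 6.65%, against 4.74% from counting, and the mean was 549.9 ± 36.6 normalized counts (SD, n = 4).

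M2 was also the most deeply sequenced library. The summed TPM of 4 satellite cell markers (pax7a, myf5, myod1 and cdh15), which mark muscle stem cells and their committed daughters, was 69.0 in M2, 66.8 in M4, 61.7 in M5, 51.7 in M1 and 30.6 in M3, and 0 of the 4 were at 0 in all fish. The sum followed myod1, with 65.1 TPM in M2 and 25.985 in M3. The other markers of the list were highest in M3, pax7a at 0.465, myf5 at 2.44 and cdh15 at 1.75 TPM, so the list did not move as 1 group. The part of depth or of these cells in the level of mstnb was not tested. In whole tissue, more cells that make a transcript and more transcript per cell cannot be told apart.

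The binding protein gene igfbp5b was counted 834 times in M1 and 3440 times in M2, with 1900, 1284 and 1379 counts in the fish M3, M4 and M5. Divided by the size factors, these gave 1373.1 in M1 and 1561.4 in M2, with 2058.4, 1551.4 and 1374.5 normalized counts in the fish M3, M4 and M5, with a mean of 1583.8 ± 280.6 (SD, n = 5). Here M3 stood apart, while M2 and M4 were alike and M1 and M5 were alike and lowest. M3 was 1.32 times the next fish, M2 (95% interval from counting 1.25 to 1.39). The coefficient of variation was 17.7%, against 2.61% from counting, and 7.20% without M3, against 2.71%. The mean without M3 was 1465.1 ± 105.5 normalized counts (SD, n = 4).

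Its paralog igfbp5a had few counts, 77 in M1 and 165 in M2, with 43, 94 and 50 in the fish M3, M4 and M5. The normalized counts were 126.8 in M1 and 74.9 in M2, with 46.6, 113.6 and 49.8 in the fish M3, M4 and M5, with a mean of 82.3 ± 36.5 (SD, n = 5). No single fish stood apart, and the fish lay in a high pair, a low pair and M2 between them. The 95% Poisson interval of M1 was 100.05 to 158.4 and that of M4 was 91.8 to 139.0 normalized counts. The intervals of M3, 33.7 to 62.8, and of M5, 37.0 to 65.7, did not reach those of M1 and M4, while that of M5 met that of M2, 63.9 to 87.2. The coefficient of variation was 44.4%, against 11.4% from counting alone. The SD of log2(normalized count + 1) was 0.65 for igfbp5a, 0.27 for mstnb and 0.24 for igfbp5b. Of the 7207 genes with a mean of at least 100 normalized counts, 91.5% had a smaller SD than igfbp5a, 50.4% a smaller one than mstnb and 39.9% a smaller one than igfbp5b. With a mean under 100, igfbp5a was itself outside that set, and low counts add to its SD.

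Levels of connective tissue markers are given beside igfbp5a. The summed TPM of 5 fibroblast markers (col1a1a, col1a1b, col1a2, dcn and lum) was 499.7 in M1, 318.3 in M4, 264.0 in M2, 261.0 in M3 and 199.5 in M5, and 0 of these markers were at 0. M1 and M4 had the highest sums, as they had the highest igfbp5a, and the lowest fish differed. The place of M4 rested on col1a1a and col1a2, at 118.3 and 101.3 TPM, since dcn, lum and col1a1b in M4 (17.5, 4.96 and 76.3 TPM) were each below at least 1 fish other than M1. For igfbp5b the highest fish, M3, had the fourth highest sum. M1, with the highest igfbp5a, was also the fish with high mybpc1 and the largest ribosomal share. It had the lowest alignment rate in the study's report as well. The part of these cells, of RNA quality or of alignment in the level of either paralog was not tested. Primary alignments alone were counted, and how alike the sequences of the paralogs are was not measured here, so some fragments of igfbp5b could have been placed on igfbp5a or the reverse.

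The ratio of igfbp5b to igfbp5a varied more between fish than either paralog alone, with an SD of 0.81 on the log2 scale against 0.59 for igfbp5a and 0.30 for igfbp5b in TPM. Per length, igfbp5b exceeded igfbp5a 11.8 times in M1, 14.9 times in M4, 22.8 times in M2, 30.1 times in M5 and 48.3 times in M3. The 95% counting intervals were 9.37 to 15.2 in M1, 12.1 to 18.6 in M4, 19.5 to 26.8 in M2, 22.7 to 40.8 in M5 and 35.7 to 67.0 in M3. Each fish therefore overlapped its neighbour in this order except M4 and M2, and M1 and M3 differed 4.08 times. In M3 igfbp5b was at its highest and igfbp5a at its lowest, and in M1 igfbp5a was at its highest and igfbp5b at its lowest, a level that M5 shared. Of the variance of the log2 ratio, 53.8% was the variance of igfbp5a, 14.0% that of igfbp5b and 32.1% their opposite movement. This split, whose last part is taken from the covariance of the paralogs, describes 5 fish, and no correlation was tested over so few. Left out in turn, each fish gave a mean log2 ratio between 4.22 and 4.73. With the counts summed over the listed transcripts of each gene, which counts the fragments of igfbp5a again for its second isoform, the mean log2 ratio was 3.49. The summed TPM of the paralogs was 25.8 ± 5.38 (SD, n = 5), and igfbp5a made up 4.70% ± 2.33 of that sum, between 2.03% in M3 and 7.79% in M1.

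**Figure D2:**
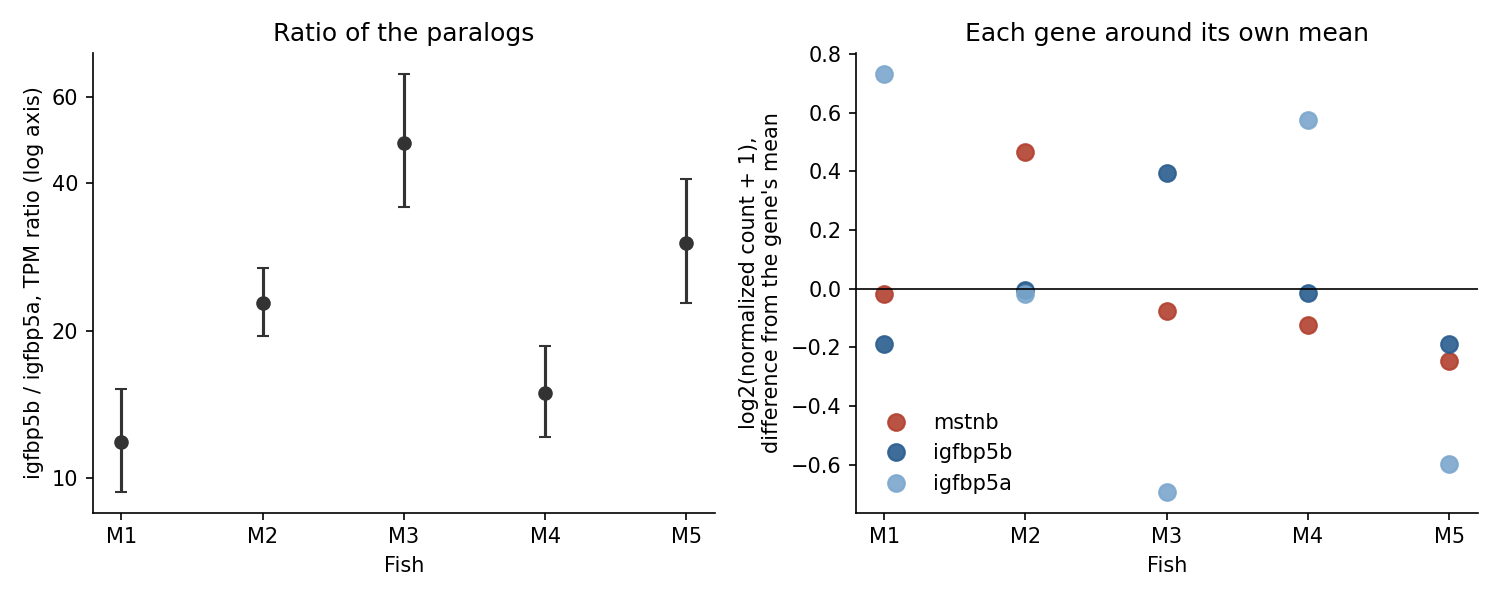
Left, ratio of igfbp5b to igfbp5a in TPM for each fish on a log axis, with the exact 95% counting interval; it runs from 11.8 in M1 to 48.3 in M3. Right, log2(normalized count + 1) of mstnb, igfbp5b and igfbp5a minus the mean of the gene over the 5 fish; in M1 and M3 the IGFBP5 paralogs lie on opposite sides of 0.

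The ratio of igfbp5b to mstnb was steadier. Per length it was 2.20 in M1 and 1.79 in M2, with 3.43, 2.67 and 2.58 in the fish M3, M4 and M5. It was lowest in the fish with high mstnb and highest in the fish with high igfbp5b. The ratio of mstnb to igfbp5a was 5.38 in M1 and 12.8 in M2, with 14.1, 5.58 and 11.7 in the fish M3, M4 and M5, so M1 and M4 were low and the counting intervals of the other fish overlapped.

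Whether a fish departs was measured by Dixon's ratio, the gap between the extreme fish and the next divided by the range of all 5. Its 95% critical value is 0.71, which holds for normally distributed values with either end allowed. It was 0.731 for mstnb with M2 highest, 0.725 for igfbp5b with M3 highest, and 0.165 for igfbp5a with M1 highest. Of the 2 members with a mean of at least 100 normalized counts, both were past 0.71. The members were chosen with earlier results of these data known, so setting them against all transcripts is a description without a test. Of the 17507 transcripts with such a mean, 7.10% had a fish apart at either end and 5.64% had the highest fish apart. For single fish, 0.337% of the transcripts had M2 high and apart, and 1.17% had M3 high and apart, so M2 departed upwards less often than any other fish, of which M5 did so most often, in 2.16%. Both members were only just past the critical value. On the log2 scale the ratio was 0.679 for mstnb and 0.683 for igfbp5b, and in TPM, an alternative added after the data were seen, 0.692 and 0.695, all below 0.71. With edgeR's TMM factors igfbp5b was at 0.677 and mstnb at 0.737, and with library totals at 0.660 and 0.834. The same fish was highest under each of these scales. The step from the highest fish to the next was larger for mstnb, 1.40 times, than for 88.8% of the transcripts, and for igfbp5b, 1.32 times, larger than for 84.3%, where the median step was 1.11 times.

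**Figure D3:**
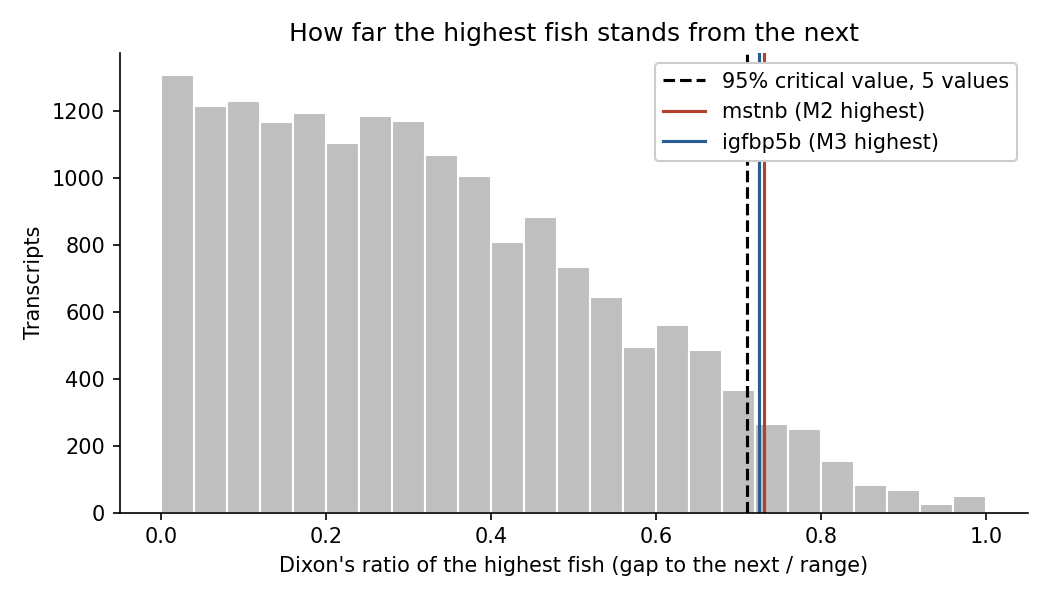
Number of transcripts (vertical axis) by Dixon's ratio of the highest fish (horizontal axis, gap to the next fish over the range), for the 17507 transcripts with a mean of at least 100 normalized counts. The solid lines for igfbp5b at 0.725 and mstnb at 0.731 lie just right of the dashed line at 0.71. This is the 95% critical value for 5 normally distributed values with either end allowed.

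The ligands related to myostatin were measured beside it. Of 14 symbols searched, 8 were found, and 3 had a mean of at least 100 normalized counts: mstnb, tgfb3 and tgfb1a. The transforming growth factor gene tgfb3 was at 9.53 ± 2.38 TPM (SD, n = 5), close to mstnb, which was above it in 3 of 5 fish, with a log2 ratio of 0.08 ± 0.35 (exact sign-flip permutation test, two-sided, p = 0.625, unchanged after adjustment over 7 pairs). These 7 pairs, here and below, were chosen after their values were seen, so their p-values are descriptive. The closest relative of myostatin, gdf11, was at 0.0953 ± 0.0373 TPM and at most 19 counts in a fish. The activin subunit genes inhbb, inhbaa and inhbab had means of 1.21, 0.392 and 0.00467 TPM. The other myostatin paralog of teleosts, mstna, has no entry under that symbol in the gene table used and was not analysed here.

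Genes that hold back or release myostatin covered a wide range of levels. Of 20 symbols searched, 12 were measured, and 5 had a mean of at least 100 normalized counts. Decorin (dcn), a matrix proteoglycan that binds TGF-β family ligands, was at 20.3 ± 3.97 TPM, and the convertase furina, of the family that cuts the precursor, was at 6.89 ± 0.674 TPM and its normalized count had the smallest coefficient of variation of the genes of these lists with such a mean, 4.44%. The antagonist follistatin (fsta) was at 1.79 ± 0.399 TPM, and mstnb exceeded it between 4.24 times in M3 and 7.10 times in M2 (log2 ratio 2.48 ± 0.33, n = 5; higher in 5 of 5 fish; exact sign-flip p = 0.0625, 0.0729 adjusted over 7 pairs). The antagonist genes wfikkn2a and wfikkn2b had at most 5 and 27 counts in a fish, and wfikkn1 had 0 in all, which allows up to 3 per library. The protease bmp1a, of the family that cuts the propeptide, was at 2.34 ± 0.496 TPM, while its relative tll1 had at most 6 counts.

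The receptors and signal carriers that were found were nearly all expressed at that level. Of 25 symbols searched, 12 were measured, and 11 had a mean of at least 100 normalized counts. Of these 11, 0 had a fish apart, against 7.31% of all genes of that level, so that fewer than 1 would be called at that share. The activin type II receptor gene acvr2aa, at 28.7 ± 4.95 TPM, exceeded its paralog acvr2ab, at 3.68 ± 0.521 TPM, and mstnb was below acvr2aa in 5 of 5 fish, at 0.243 to 0.410 of its level (log2 ratio -1.54 ± 0.30, n = 5; exact sign-flip p = 0.0625, 0.0729 adjusted over 7 pairs). No acvr2b gene was among the 12 measured, so other type II receptors were not compared with mstnb. The type I receptor acvr1ba was at 7.67 ± 1.38 TPM. The signal carrier smad3b was at 5.34 ± 0.781 TPM, smad3a at 1.99 ± 0.331, smad4a at 2.11 ± 0.370 and smad2 at 0.461 ± 0.196. The inhibitory smad7, which TGF-β family signals are known to induce, was at 15.4 ± 2.02 TPM. It was highest in M2, as mstnb was, at 788.9 normalized counts, but M5 followed at 767.5.

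Of 18 IGF-binding protein symbols searched, 8 were measured, of which 4 had a mean of at least 100 normalized counts. Genes listed under other names were not counted here, among them LOC100709771, which is described below. igfbp5b had the highest mean of these 8. The next, igfbp1a, whose mammalian counterpart is known as a liver protein, was at 13.9 ± 3.22 TPM. igfbp5b exceeded it in 5 of 5 fish, by 1.29 times in M4 to 2.52 times in M3 (log2 ratio 0.84 ± 0.41, n = 5; exact sign-flip p = 0.0625, 0.0729 adjusted over 7 pairs). igfbp7, a relative with low affinity for IGFs, was at 7.09 ± 1.25 TPM and igfbp3, the main carrier of IGFs in mammalian blood, at 2.41 ± 0.693 TPM. igfbp3 was highest in M3, as igfbp5b was. The ratio of igfbp5b to igfbp3 was between 9.26 and 13.2 in all fish, with a log2 SD of 0.21. In contrast igfbp5a was below igfbp3 in 5 of 5 fish, at 0.200 of its level in M3 and 0.819 in M1. igfbp6b, igfbp2a and igfals, the acid-labile subunit of the blood complex, had means of 0.401, 0.214 and 0.00586 TPM.

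The IGF ligands found, 3 of 7 symbols searched, were low in this tissue. igf2b was at 1.56 ± 0.650 TPM and igf1 at 0.657 ± 0.188 TPM, and ins, the insulin gene, had 0 counts in all fish. igfbp5b exceeded igf2b between 9.38 times in M2 and 21.5 times in M4. Both ligands were highest in M2, igf1 at 57.2 and igf2b at 83.5 normalized counts, in the fish in which mstnb was also highest. Neither had a fish apart by Dixon's ratio, at 0.572 and 0.598. The IGF1 receptor genes igf1ra and igf1rb were at 0.360 and 0.196 TPM, and the insulin receptor genes insra and insrb at 5.78 ± 0.702 and 3.22 ± 0.783 TPM. Downstream of both receptor types, the adaptor irs2b was at 48.1 ± 17.7 TPM, the highest level in these lists.

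Of the proteases that free IGFs from binding proteins and the stanniocalcins that block them, 13 symbols were searched and 5 were measured. Of these 5, 1 had a mean of at least 100 normalized counts. The stanniocalcin stc2a was at a mean of 3.35 TPM and ranged from 69.8 normalized counts in M5 to 300.9 in M2. The pappalysin genes pappaa and pappa2, whose mammalian counterparts cut IGF-binding proteins, were at 0.470 and 0.145 TPM. htra1b, a serine protease gene, ranged from 43.6 normalized counts in M2 to 181.2 in M4.

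**Figure D4:**
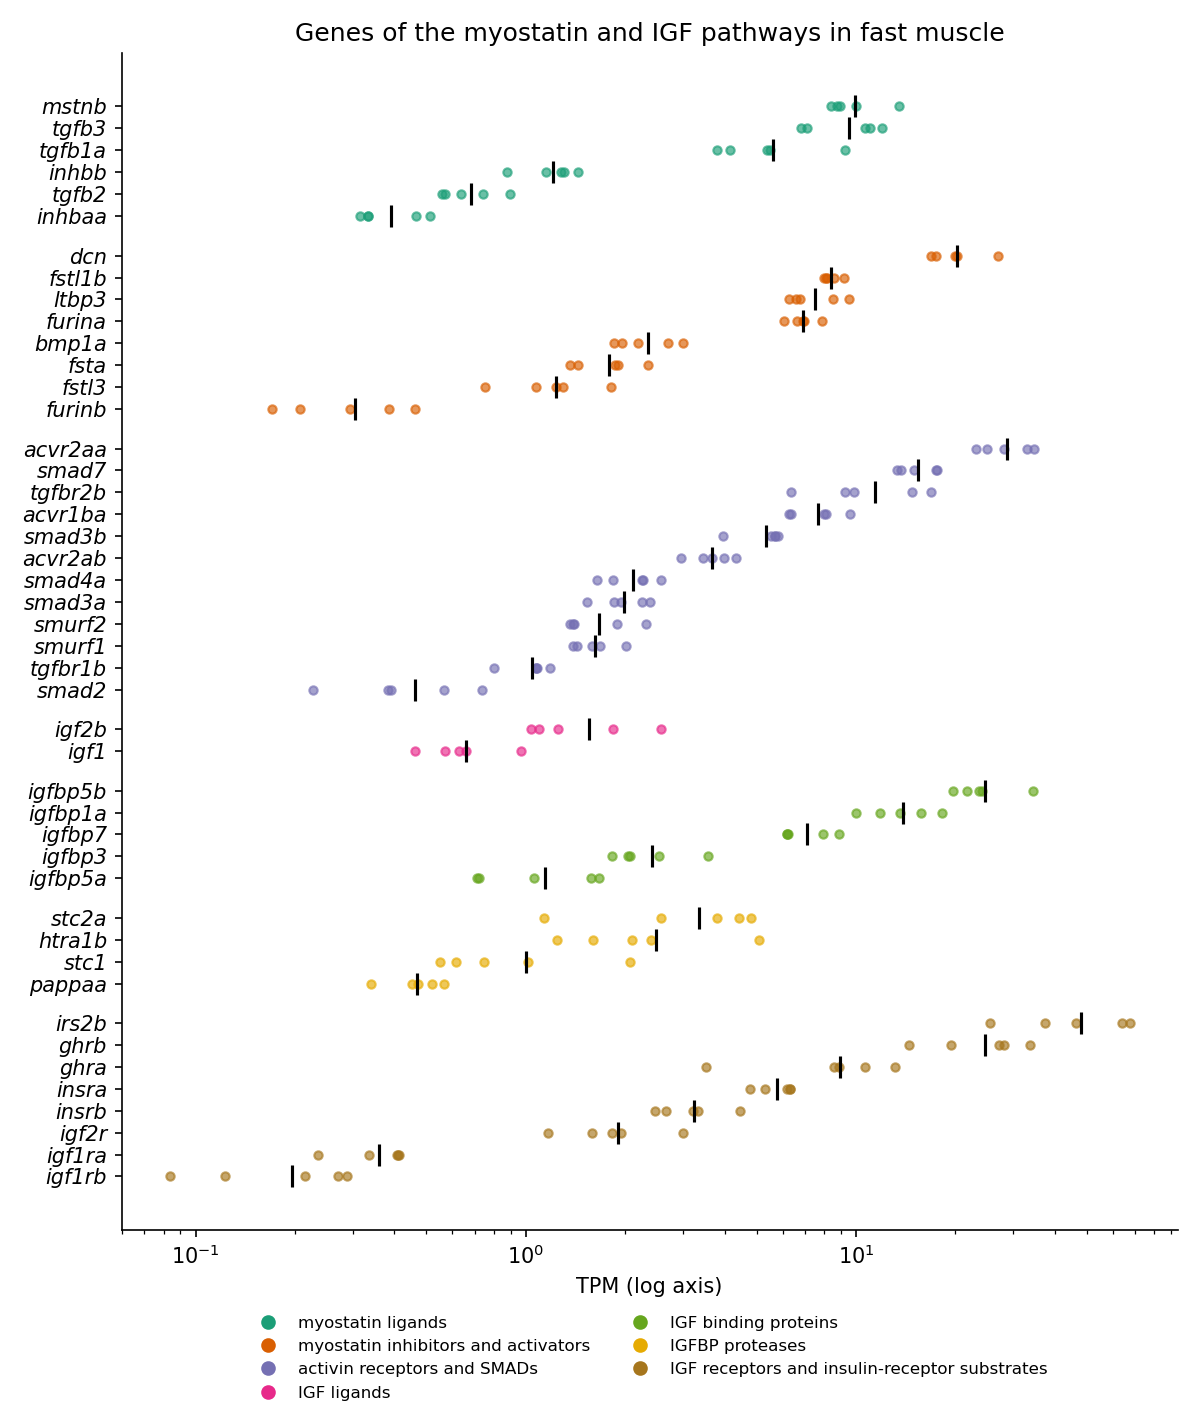
TPM (log axis) of the 45 genes of the myostatin and IGF lists with a mean of at least 20 normalized counts, 1 point per fish and a black bar at the mean, coloured by list. igfbp5b lies at the top of the binding proteins at 24.7 TPM and igfbp5a near their lower end at 1.15 TPM, while mstnb, at 9.94 TPM, overlaps tgfb3.

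Across the 7 lists together, 111 symbols were searched, 56 genes were measured and 30 had a mean of at least 100 normalized counts. Of these 30, 3 had a fish apart, mstnb in M2, igfbp5b in M3 and dcn in M1, against 7.31% of the 7207 genes of that level when each gene was counted once. Of the 3, mstnb and igfbp5b are members, chosen with earlier results of these data known, so this count is no test of the lists. The median SD of log2 values was 0.29 in the lists and 0.27 over those genes. M3 was the highest fish for 9 of the 30 genes, igfbp5b, igfbp3, ltbp3, furina, acvr1ba, tgfbr2b, igf2r, insrb and ghrb, and for 23.0% of all transcripts tested. M2 was the highest for 4 of the 30, among them mstnb, and for 17.5% of the transcripts. Both shares are over transcripts, so a gene with several transcripts enters them more than once, unlike the 30 genes.

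The surroundings of the genes were quiet in part. mstnb and igfbp5b are separated by 579001 bases on linkage group 16, with 13 annotated genes between them, 9 of them protein coding. Of these 13, 3 had a mean of at least 100 normalized counts: tns1b, which encodes a focal adhesion protein, plcd4b and ormdl1. The neighbours of mstnb were pms1, a mismatch repair gene at 0.207 ± 0.0606 TPM, and hibch, a valine catabolism gene at 11.3 ± 1.14 TPM. The 3′ end of hibch lies 12362 bases from the start of mstnb, and its normalized count was 557.8 in M2, its lowest value, against 678.8 in M5, so M2 was not high at this neighbour.

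Each IGFBP5 paralog lies beside an IGFBP2 gene that points towards it, and these neighbours were nearly silent. The 3′ end of igfbp2a lies 2112 bases from that of igfbp5a, on the opposite strand, and igfbp2a had 12.1 normalized counts in M4 and 8.62 in M2, with 3.29, 2.17 and 1.99 in the fish M1, M3 and M5. LOC100709771, which the study's annotation names IGF-binding protein 2-B, ends 7947 bases from the 3′ end of igfbp5b on the opposite strand and had 0 counts in all fish, which allows up to 3 per library. The abundance of igfbp5b was thus not shared by the gene next to it.

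**Figure D5:**
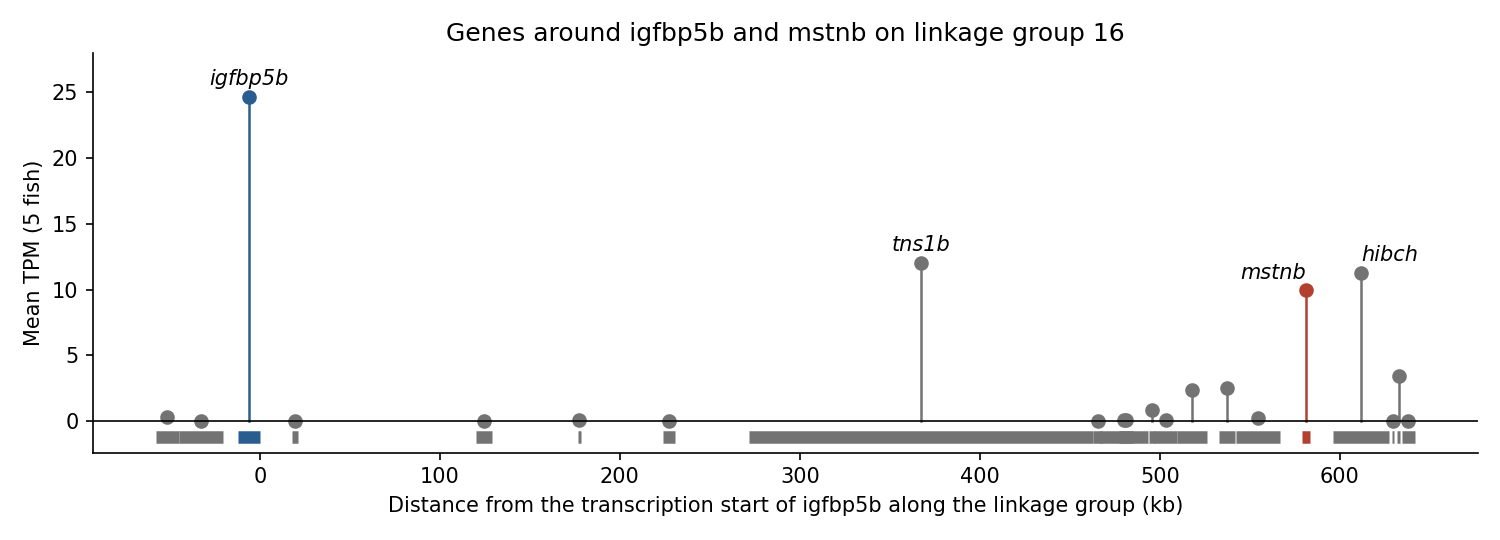
Mean TPM over 5 fish (vertical axis) of the annotated genes around igfbp5b and mstnb on linkage group 16, by distance from the transcription start of igfbp5b in kb; bars under the axis show the extent of each gene. igfbp5b, tns1b, mstnb and hibch stand above 5 TPM, and most genes between them lie near 0.

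Genes with a similar profile over the fish were sought as those with the smallest root mean square difference of log2(normalized count + 1), each centred on its own mean, among genes with a mean of at least 100 normalized counts. For mstnb these were LOC100709032, at 0.048, the acetyltransferase gene ep300b, at 0.058, and mbd3b, of a nucleosome remodelling complex, at 0.078, against a median of 0.35 over 7206 genes. For igfbp5b they were lrrk2, a kinase gene, at 0.029, efr3a, which encodes a plasma membrane scaffold, at 0.031, and rptor, the raptor subunit of the mTOR complex 1, at 0.035, against a median of 0.32. For igfbp5a they were the coactivator gene pprc1, at 0.12, adam15, a metalloprotease gene, at 0.12, and LOC112847497, at 0.14, against a median of 0.66. With 5 fish and so many genes, each member had such close profiles, and this likeness is a description without a test. Neither mstnb nor igfbp5b was among the closest profiles of another member. With a mean under 100 normalized counts, igfbp5a could not be listed for mstnb or igfbp5b. The difference was 0.31 between mstnb and igfbp5b, 0.60 between mstnb and igfbp5a and 0.71 between the IGFBP5 paralogs. The 0.31 was below the median of either gene, with 38.1% of the genes closer to mstnb and 46.5% closer to igfbp5b. For igfbp5b, 93.6% of the genes were closer to it than its own paralog. For mstnb, 88.5% were closer to it than igfbp5a. The difference is not scaled by the SD, so the large SD of igfbp5a adds to both shares. For igfbp5a, which had the larger SD, 64.7% were closer to it than igfbp5b.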

How the data were processed

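Fast muscle RNA of 5 fish was depleted of ribosomal RNA and sequenced as 1 directional library per fish. Per the labels and methods, reads were trimmed by the authors, mapped by HISAT2 2.1.0 and counted as fragments by featureCounts. The deposited values are raw counts per listed feature, mostly transcripts. A fragment could match several transcripts, only primary alignments were counted, and the strand setting of the counting is not given in the sources used here.

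Counts were divided by DESeq2 1.42.0 size factors (R 4.3.3), between 0.607 in M1 and 2.20 in M2. TPM used the deposited transcript lengths over all 80416 features, so shared fragments enter its total more than once. Of these features, 79096 matched 1 gene of the RefSeq gene table by coordinates, and each gene is given by its highest transcript. Statistics used scipy 1.17.1 and numpy 2.4.6 in Python 3.11.15, tables pandas 2.3.3 and plots matplotlib 3.10.9. Dixon's ratio was tried on simulated counts with larger changes in 1 library than the steps of mstnb and igfbp5b. The sign-flip test was checked on made values, and the other calculations were not tried in this way. Alternatives were edgeR 4.0.16 TMM factors, library totals, sums over isoforms, a log2 scale, other minimum means, a pseudocount and leaving out each fish.

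The members and gene lists were chosen with earlier results of these data known. Named are the members, the genes of the lists, mostly those with a mean of at least 100 normalized counts, the 3 closest profiles per member and the nearest genes. Lower genes named, and the 7 pairs of a member with another gene, were chosen after their values were seen. The fish share 1 family, so the p-values speak only for these siblings. With all fish in 1 direction the sign-flip p is the same whatever their spread. No column was left out (0 not used).

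Marker lists were also fixed for red blood cells, adipocytes, liver and endothelium, of which 2 of 5, 2 of 5, 2 of 6 and 3 of 4 genes were found. Their summed TPM lay between 2.76 and 6.01 for red blood cells, 96.4 and 164.0 for adipocytes, 0.0572 and 0.296 for liver, and 3.98 and 6.24 for endothelium, highest in M5 except for liver, highest in M1. The adipocyte sum was nearly all fabp4a, since cidec, the other marker found, had a mean of 0.0604 TPM.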

Additional observations from a re-analysis of the deposited data

Results flagged for a closer look

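Of the 56 genes of the lists measured, 4 had a fish far from the others by Dixon's ratio, leaving aside inhbab and igfals with 1 count each. Chance gives this, at either end, for about 1 in 20 groups of normally distributed values. Counts need not be distributed in that way, and 7.10% of the 17507 transcripts tested had it (7.68% at a minimum mean of 10). The 56 genes include 26 with a mean under 100, so they are not a like set. Of the 30 list genes with a mean of at least 100, 3 had it (10%), against 7.31% of the 7207 genes of that level. mstnb was high in M2, at a ratio of 0.731, and igfbp5b was high in M3, at 0.725. Both are members, chosen with earlier results of these data known. The matrix gene dcn was high in M1, at 0.725, with 1022.4 normalized counts there and 705.3 in the next fish. The stanniocalcin gene stc1, with a mean of 72.4 normalized counts, was high in M4, at 0.725, with 152.2 there and 71.8 in the next fish.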

How the results depend on the processing

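Of 69 recomputed values, 59 stayed on their side of the threshold or within the spread, 6 lost the call and 4 moved. Many of the 59 could not have changed, so their number does not measure robustness. The tests of ratios could not pass 0.05, and a mean without 1 of 5 fish cannot move by a full SD. mstnb and igfbp5b have 1 listed transcript each, so their sums over isoforms repeated the same counts. The 6 lost calls were all Dixon ratios of mstnb or igfbp5b. Among the 59, the extreme fish of igfbp5a, which was never apart, turned from M1 high to M3 low with library totals, at a Dixon ratio of 0.0721. The Dixon ratio of mstnb was 0.679 on the log2 scale and 0.692 in TPM. That of igfbp5b was 0.677 with TMM factors, 0.660 with library totals, 0.683 on the log2 scale and 0.695 in TPM. The cause was not tested, and TPM was added after seeing the data. Summed over its isoforms, which count the same fragments, igfbp5a had 164.7 normalized counts, and the mean log2 ratios were 3.49 for igfbp5b to igfbp5a and 2.18 for mstnb to igfbp5a. Transcripts with a fish apart, 1243 in the analysis reported, numbered 2494 at a minimum mean of 10 (7.68% of 32477), 201 at a minimum of 1000 (5.63% of 3572) and 527 with 1 transcript per gene (7.31% of 7207). Without each fish in turn, the mean of mstnb lay between 549.9 and 630.3, that of igfbp5b between 1465.1 and 1636.4 and that of igfbp5a between 71.2 and 91.3 normalized counts. Tests of ratios could not reach 0.05 with 5 fish. Fish could not be paired across groups because all belong to 1 group, and the tests of ratios compared 2 genes within each fish. Counts of igfbp5a between 43 and 165 gave a coefficient of variation of 11.4% from counting, against 44.4% between fish.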

Other observations

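Both growth hormone receptor genes, through which pituitary growth hormone acts on muscle, were lowest in M4. ghra had 368.5 normalized counts in M4 and 1326.7 in M5, its highest fish, and ghrb had 468.8 in M4 and 995.6 in M3. The adaptor irs2b was highest in M4, at 7236.3 normalized counts, but M2 was close at 6714.8, and M5 was lowest at 2636.4. igfbp1a was also highest in M4, at 647.6, with M5 next at 536.3. The stanniocalcin and protease genes stc1 and htra1b were at 152.2 and 181.2 normalized counts in M4, against 71.8 and 90.6 in the next fish. Of the genes named here, stc1 alone had a fish apart by Dixon's ratio. Of the 30 list genes with a mean of at least 100 normalized counts, M4 was lowest for 5 and highest for 7. It was lowest for 18.5% and highest for 16.6% of all transcripts tested. These are values of 1 fish against the others, with no test.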
